A study of Homo sapiens with 42 samples.

Results

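The AP-1 transcription factors examined here were 10 genes, FOS, FOSB, FOSL1, FOSL2, JUN, JUNB, JUND, ATF3, BATF and MAFF, followed through the accessibility of the chromatin around them. Every region that the submitters' annotation assigned to 1 of these symbols was taken, which gave 227 of 242490 annotated regions over 4 tables. PC9 had 77 of them, H1975 69, HCC2935 57 and HCC827 24. All but 1, in HCC827, had enough reads to be tested. The assay was ATAC-seq, in which a transposase cuts open chromatin, so that the reads in a region measure how open it is. It reports on accessibility and not on RNA or protein.

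The 42 libraries came from 4 established lung cancer lines with mutant EGFR, in 14 groups of 3. Control cells had 21 days without drug and then 3 days of DMSO as vehicle. Drug-tolerant persister cells (DTP) had osimertinib, an inhibitor of mutant EGFR, at 500 nM for 24 days. The combo group had 21 days of osimertinib at 500 nM and then 3 days of AZD5153, an inhibitor of BET bromodomain proteins, at 150 nM. PC9 and H1975 also had a group with AZD5153 alone, given at 150 nM for 3 days after 21 days without drug. The labels call the libraries of a group biological triplicates, and each line was a single culture model rather than a set of tumours.

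AP-1 is a family of dimers of basic leucine zipper proteins. JUN, JUNB and JUND pair with each other or with FOS, FOSB, FOSL1 and FOSL2, and the dimers bind a short DNA element called the TRE. ATF3 and BATF are relatives that pair with JUN proteins, and MAFF is a small MAF protein without a transactivation domain. Several of these genes are early targets of the ERK and JNK kinase cascades, which EGFR can activate.

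RefSeq promoter windows (GRCh38.p14) were at hand for 9 of the 10 members, 11 windows in all. The 250 bases before each start were searched on both strands for the TRE (TGACTCA), the cyclic AMP response element or CRE (TGACGTCA) and the CArG box of serum response factor. Neither the TRE nor the CRE contains the other. The TRE was in 0 and the CArG box in 0 of the 11 windows, and the CRE was in 2, those of JUND and MAFF. Only exact matches were counted, so variants of these elements and sites farther from a start would be missed. The FOSB and ATF3 windows shared 0 bases with the lead promoter regions described below. Among all 35116 windows of this length 4.20% held a TRE, 1.65% a CRE and 1.16% a CArG box. The 4 windows below each lie inside the lead promoter region of the line named with them, so they are the letters behind values given further on. FOSL2 and JUN are shown as promoters that were called in several comparisons, MAFF as one that was called in none, and JUND for its CRE. The windows are chr2:28392608-28392857 on the plus strand for FOSL2 (PC9), chr1:58784048-58784297 on the minus strand for JUN (PC9), chr22:38201744-38201993 on the plus strand for MAFF (PC9) and chr19:18281623-18281872 on the minus strand for JUND (H1975). Each reads 5′ to 3′ on the strand of the gene, and capitals mark a CRE.
FOSL2: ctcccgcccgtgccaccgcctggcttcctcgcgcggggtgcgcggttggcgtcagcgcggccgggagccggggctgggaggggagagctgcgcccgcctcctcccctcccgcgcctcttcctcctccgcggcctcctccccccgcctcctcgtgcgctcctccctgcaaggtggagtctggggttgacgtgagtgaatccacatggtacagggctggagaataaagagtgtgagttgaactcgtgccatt
JUN: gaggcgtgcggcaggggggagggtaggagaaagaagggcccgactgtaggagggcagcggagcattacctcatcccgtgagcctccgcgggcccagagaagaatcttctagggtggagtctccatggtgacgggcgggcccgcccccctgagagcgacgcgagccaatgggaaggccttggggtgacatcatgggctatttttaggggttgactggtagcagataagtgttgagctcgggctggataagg
MAFF: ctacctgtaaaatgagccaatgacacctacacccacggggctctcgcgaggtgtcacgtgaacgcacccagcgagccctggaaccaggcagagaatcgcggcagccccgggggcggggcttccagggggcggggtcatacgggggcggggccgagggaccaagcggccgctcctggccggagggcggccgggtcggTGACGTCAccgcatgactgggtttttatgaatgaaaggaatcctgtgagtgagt
JUND: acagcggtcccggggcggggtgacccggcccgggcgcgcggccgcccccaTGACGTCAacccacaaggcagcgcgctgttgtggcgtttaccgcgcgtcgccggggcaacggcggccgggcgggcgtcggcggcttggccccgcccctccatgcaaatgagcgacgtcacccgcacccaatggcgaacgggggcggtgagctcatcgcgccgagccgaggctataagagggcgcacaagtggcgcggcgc
The CRE began 200 bases before the start of JUND and 54 bases before that of MAFF. The GC content of the windows was 69.6% for FOSL2, 62% for JUN, 65.6% for MAFF and 74.8% for JUND.

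Total counts per library were lowest in HCC827 (1724680 to 4242868) and highest in H1975 (6200672 to 10062505), with PC9 (3989287 to 5193390) and HCC2935 (3968690 to 8066287) between them. Within groups, 9 of 12 pairs of PC9 libraries and 5 of 12 of H1975 differed by no more than counting noise, against 0 of 9 in HCC827 and 0 of 9 in HCC2935. Libraries that close may be 1 preparation sequenced more than once. Beside the PC9 and H1975 tests stands therefore a summed fit, in which the 3 libraries of a group were added to 1 sample that was assumed to vary as HCC2935 does. In HCC827 libraries of the same number deviated together, so that line is given with the replicate number as a block. All 5 epithelial markers (EPCAM, CDH1, KRT8, KRT18 and KRT19) had a promoter region in each line, with mean levels of 12.1 to 37.9 CPM. Of 8 markers of other cell types 2 to 4 had one, at 2.93 to 22.8 CPM, and PTPRC and LYZ had none.

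For each gene and line the promoter region nearest to the start is called the lead promoter. All regions had the same width, so levels in CPM, that is TMM-normalised counts scaled to a common library size, can be compared between genes. In control PC9 cells FOSL2 was highest at 53.0 CPM ± 3.4 (SD, n = 3), then FOSL1 at 46.4 ± 0.48, and neither overlapped the next gene in the order. JUN, MAFF, JUNB, ATF3 and FOS followed from 34.1 down to 23.6 CPM, each overlapping the next. FOSB, BATF and JUND were lowest in PC9 at 14.6, 9.73 and 7.31 CPM. In H1975 ATF3 (53.1 ± 6.3 CPM) overlapped FOSL2 (43.9 ± 2.6), which overlapped JUN (38.9 ± 4.3). In HCC2935 FOSL2 (57.8 ± 3.6 CPM) and FOSL1 (55.1 ± 5.7) overlapped at the top, and FOS was lowest at 2.56 ± 0.46. In HCC827 JUN led at 66.6 ± 22 CPM, and every gene overlapped the next. The lead promoters of FOS, FOSB, JUND and BATF lay at different positions in different lines, and BATF had no promoter region in HCC827. Lead promoters shared 0 bases with the RefSeq windows above for FOS in HCC2935, BATF in H1975, JUND outside H1975, and FOSB and ATF3 throughout. Their ranks in CPM are those of the lead regions and not of the windows.

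**Figure D1:**
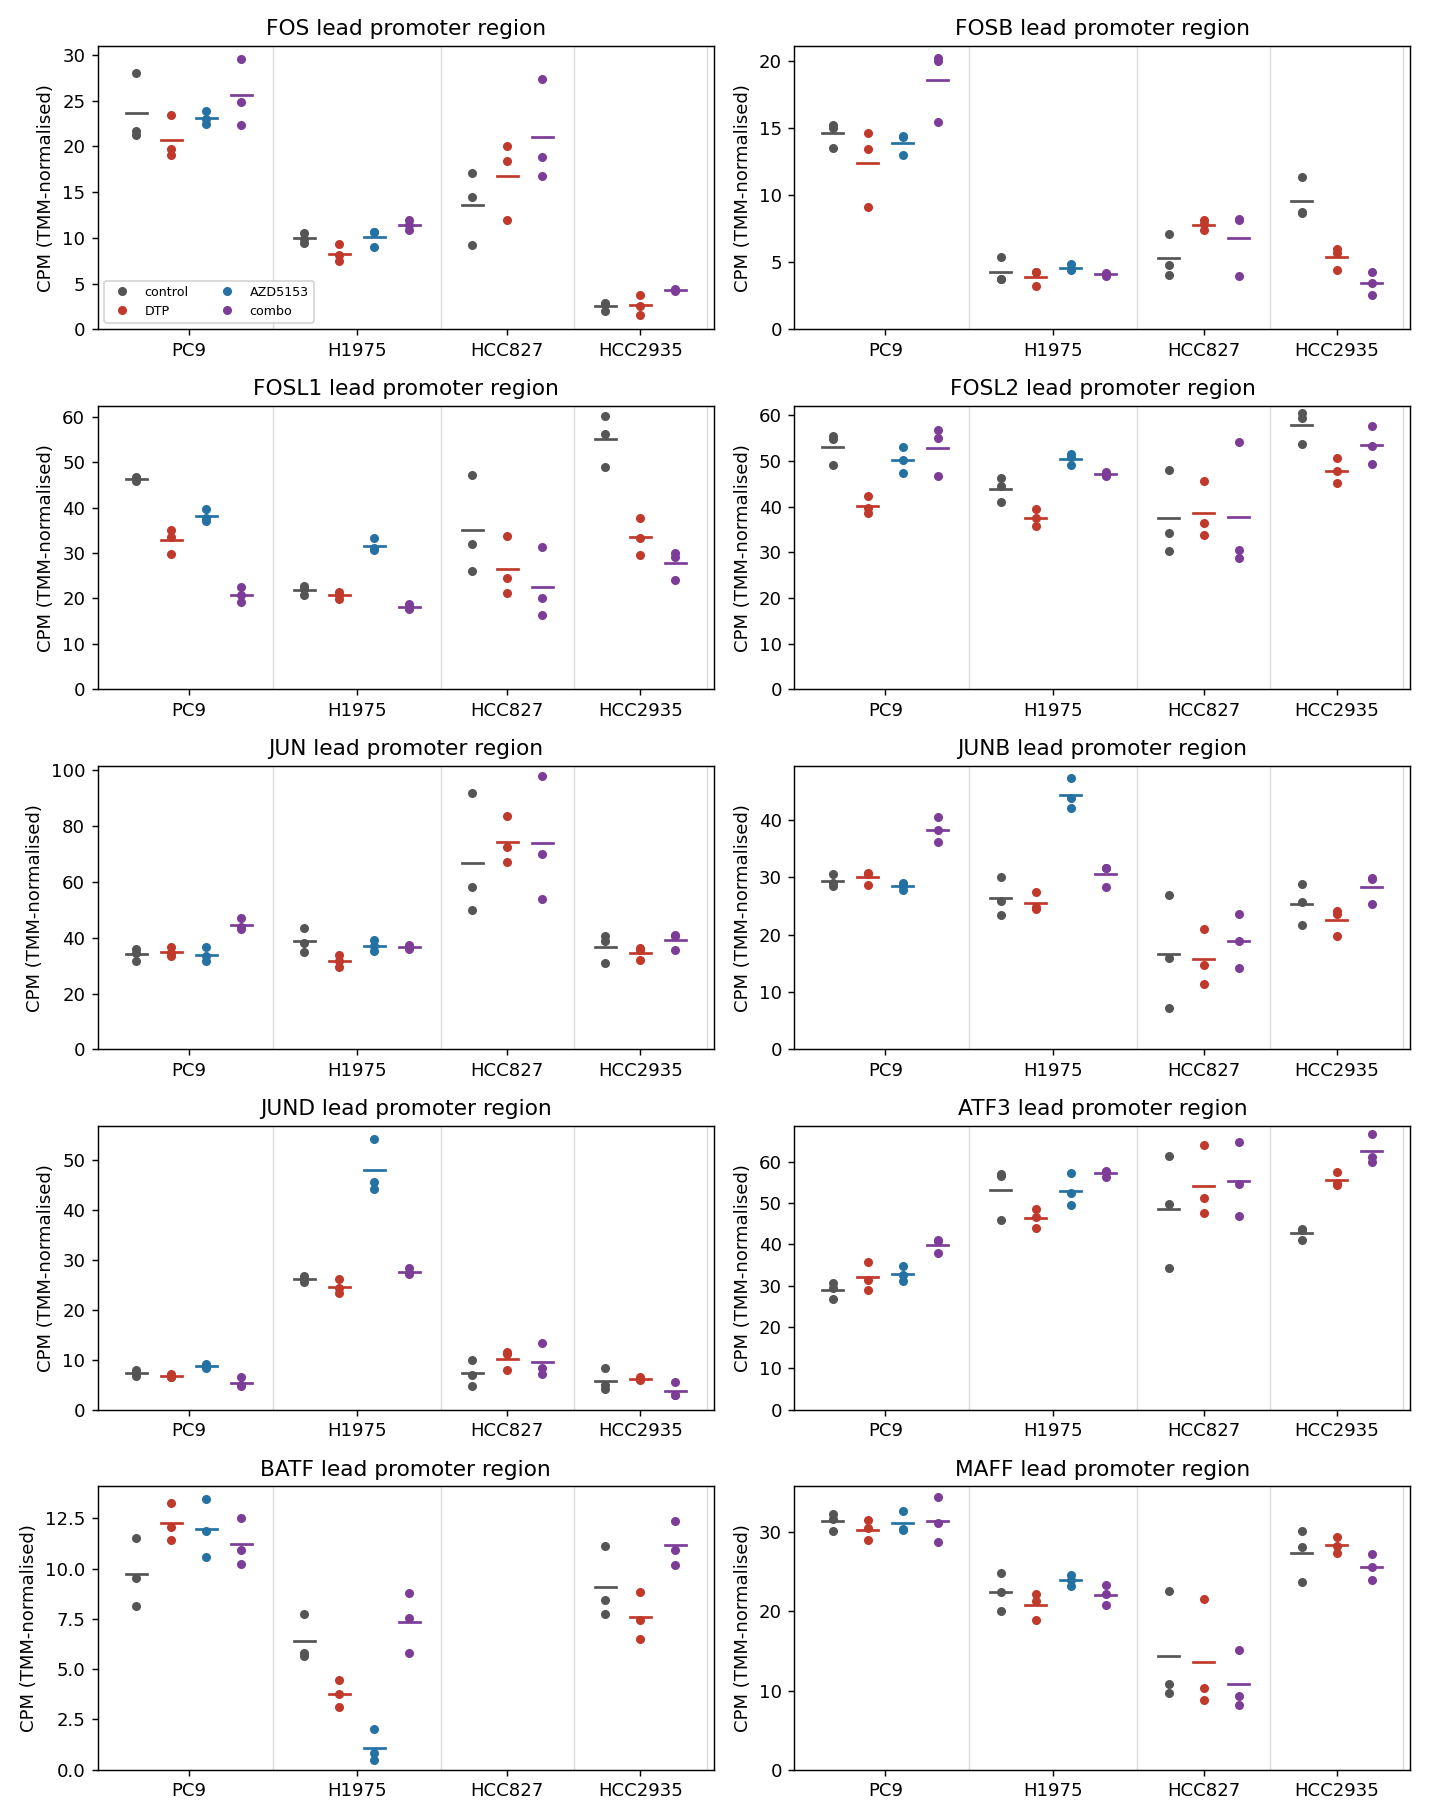
Accessibility of the lead promoter of each gene in all 14 groups, in TMM-normalised CPM on the y axis, with 1 point per library. In PC9 the FOSL1 points of DTP lie at 29.8 to 35.0 CPM, below the control points at 45.8 to 46.8 CPM.

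The first comparison asked how persister cells differed from control cells. FOSL1 encodes FRA-1, a FOS family member. Its lead promoter in PC9 (chr11:65900313-65900814) read 45.8, 46.4 and 46.8 CPM in control and 29.8, 33.5 and 35.0 in DTP. In HCC2935 it read 48.9, 56.2 and 60.1 CPM in control and 29.6, 33.4 and 37.7 in DTP. Control and DTP libraries did not overlap in either line. On the log2 scale the promoter fell by 0.50 ± 0.086 (SE) in PC9 (edgeR, adjusted p = 2.03e-07) and by 0.72 ± 0.11 in HCC2935 (adjusted p = 1.13e-06). The PC9 call was lost in the summed fit (adjusted p = 0.0958). In HCC2935 the median region of the same 10 Mb bin was at -0.68, and with bin medians removed FOSL1 was at -0.12 (adjusted p = 0.441). FOSL1 was at -0.09 ± 0.092 in H1975 (edgeR adjusted p = 0.447) and, with the block, at -0.40 ± 0.22 in HCC827 (adjusted p = 0.412).

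FOSL2, which encodes FRA-2, was lower in DTP in 3 lines. In PC9 it read 49.1, 54.7 and 55.4 CPM in control and 38.5, 39.8 and 42.2 in DTP, without overlap. The log2 change was -0.40 ± 0.079 in PC9 (edgeR adjusted p = 8.22e-06), -0.23 ± 0.071 in H1975 (adjusted p = 0.00465) and -0.28 ± 0.098 in HCC2935 (adjusted p = 0.0230). With bin medians removed none of the 3 FOSL2 changes passed (edgeR adjusted p = 0.465, 0.0618 and 0.366), and that of HCC2935 turned to 0.13. In the summed fit FOSL2 did not pass in PC9 (adjusted p = 0.198) or H1975 (adjusted p = 0.387), and by library size alone it did not pass in H1975 or HCC2935. The FOSB lead promoter fell in HCC2935 from 8.70, 8.74 and 11.3 CPM to 4.42, 5.69 and 5.98, without overlap. That is a change of -0.83 ± 0.23 (edgeR adjusted p = 0.00325), which held with bin medians removed (adjusted p = 0.00203). The call was lost with no filter (edgeR adjusted p = 0.0712). The matched FOSB region in PC9, not its lead promoter there, was also lower, at -0.67 ± 0.14 (edgeR adjusted p = 2.12e-05, summed fit 0.0361), and the H1975 lead promoter at that place was at -0.13 ± 0.20 (adjusted p = 0.609). In HCC2935 the FOSB region that overlaps the RefSeq window was at 0.35 ± 0.25 (edgeR adjusted p = 0.279). FOS, the prototype immediate early gene, passed in 0 of 4 lines at its lead promoter. In H1975 5 of its 9 regions were higher and 1 lower, where 24.8% of all tested regions were higher and 27% lower. With bin medians removed this became 4 higher and 2 lower. A FOS promoter region 1.35 to 1.41 kb before the start, looked up after its values were seen, was at 0.41 ± 0.082 in H1975 (edgeR adjusted p = 4.80e-06), -0.21 ± 0.072 in PC9 (adjusted p = 0.0154) and -0.66 ± 0.11 in HCC2935 (adjusted p = 1.02e-05). The first 2 of these were lost in the summed fit (adjusted p = 0.145 and 0.545) and that of HCC2935 with bin medians removed (adjusted p = 0.631).

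Among the partners, JUN read 34.9, 38.2 and 43.4 CPM in H1975 control and 29.5, 31.6 and 33.6 in DTP, a change of -0.29 ± 0.076 (edgeR adjusted p = 5.70e-04). The JUN call was lost with bin medians removed (adjusted p = 0.0627) and in the summed fit (adjusted p = 0.264). ATF3, a stress-induced factor, rose in HCC2935 from 41.1, 43.4 and 43.7 CPM to 54.4, 54.9 and 57.6, by 0.38 ± 0.097 (edgeR adjusted p = 0.00161), and was at 0.15 with bin medians removed (adjusted p = 0.302). In H1975 ATF3 was at -0.19 ± 0.068 (edgeR adjusted p = 0.0116) with overlapping libraries, lost in the summed fit (adjusted p = 0.458), and at -0.43 with bin medians removed (adjusted p = 7.89e-07). BATF, known mainly from lymphocytes, fell in H1975 from 5.65, 5.78 and 7.74 CPM to 3.10, 3.77 and 4.46, by 0.75 ± 0.19 (edgeR adjusted p = 3.11e-04, summed fit 0.0160). The matched BATF regions, not lead promoters there, were higher in HCC2935, at 1.19 ± 0.15 (edgeR adjusted p = 1.18e-08), and in PC9, at 0.22 ± 0.085 (0.0341). JUNB, JUND and MAFF passed in 0 of 4 lines. In all, lead promoters of members were 0 higher and 2 lower of 10 in PC9, 0 and 4 of 10 in H1975 and 1 and 3 of 10 in HCC2935. Among the lead promoters of all annotated genes 14% were higher and 9.99% lower in PC9, 20.7% and 26.2% in H1975, and 21.6% and 10.7% in HCC2935.

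**Figure D2:**
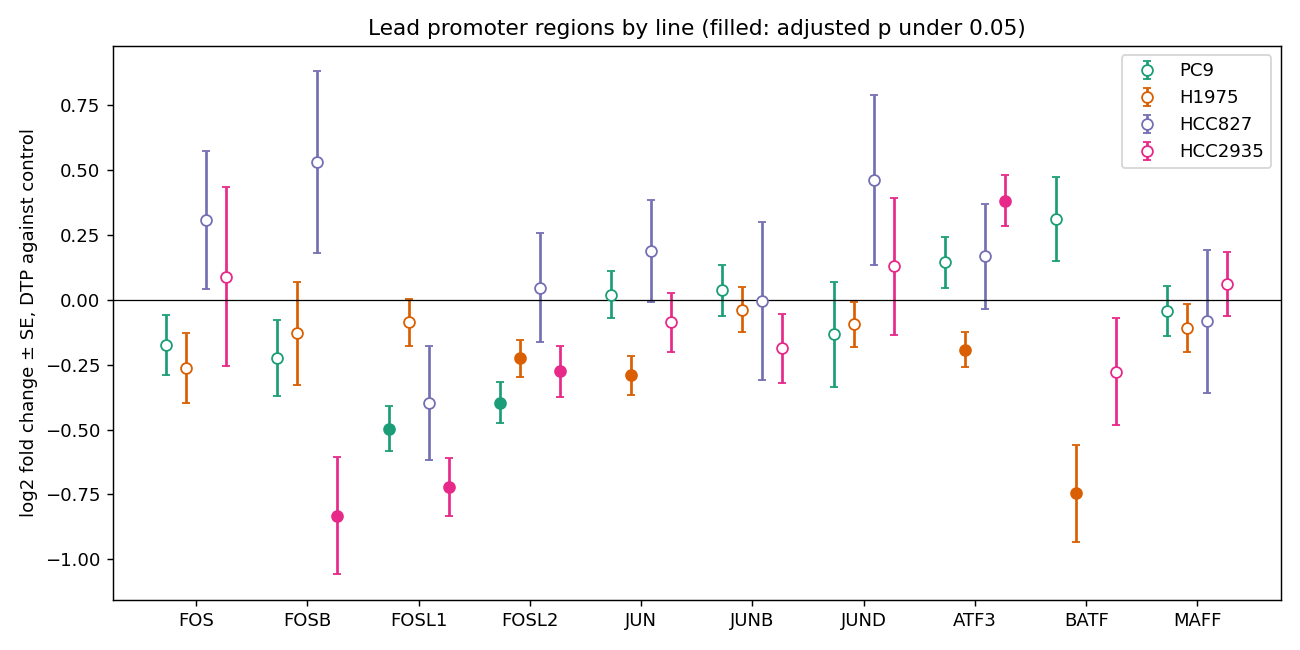
Log2 fold change of DTP against control at each lead promoter, by line, with bars of 1 SE. Filled points passed an adjusted p of 0.05 and HCC827 is shown with the replicate block. FOSL1 is at -0.50 in PC9 and -0.72 in HCC2935, and open at -0.09 in H1975.

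Whether the change differed between lines was tested over 81827 regions matched in all 4 tables, of which 44.8% passed. For 6 genes the matched region was the lead promoter in every line. Of these, FOSL1 (edgeR adjusted p = 1.56e-04), ATF3 (1.78e-04) and JUN (0.0256) differed between lines, whereas FOSL2 (0.592), JUNB (0.330) and MAFF (0.834) did not pass. In all 3 of 10 members passed. This test was not run with bin medians removed, which had taken away the calls of FOSL1 and ATF3 in HCC2935 and of JUN in H1975. The part of regional shifts in these differences was not tested.

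The regions described next lay away from the lead promoters and were picked for the size of their change. Intron labels are those of the annotation and need not refer to an intron of the named gene. In PC9 the largest named falls lay just after FOS. The region chr14:75282682-75283183, 2.49 kb after its start, read 4.76, 5.68 and 5.85 CPM in control and 0.602, 0.973 and 1.66 in DTP, a change of -2.31 ± 0.34 (edgeR adjusted p = 7.18e-10). At 3.32 kb after the start of FOS the change was -1.98 ± 0.21 (edgeR adjusted p = 2.76e-17). Both passed in the summed fit (adjusted p = 6.33e-07 and 7.37e-09). In HCC2935 regions 3.68 and 2.85 kb after FOS were at -1.61 ± 0.26 (edgeR adjusted p = 3.62e-06) and -1.12 ± 0.29 (adjusted p = 0.00197). The bin median there was -0.64, and with it removed the first of these 2 regions passed (adjusted p = 0.00163) and the other did not (adjusted p = 0.142). The other was also lost without HCC2935 DTP replicate 2. In H1975 the region 3.31 kb after FOS, looked up after its value was seen, was higher in DTP by 0.76 ± 0.22 (edgeR adjusted p = 0.00198). An intronic region 31.9 kb before FOS rose in PC9 from 1.22, 1.27 and 1.39 CPM to 4.82, 5.38 and 6.62, by 2.10 ± 0.32 (edgeR adjusted p = 4.93e-09).

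BATF held the largest fall among the named DTP regions. Its intronic region 13.3 kb after the start in H1975 (chr14:75535813-75536314) read 37.8, 40.9 and 41.9 CPM in control and 4.19, 4.97 and 5.38 in DTP, a change of -3.06 ± 0.11 (edgeR adjusted p = 5.25e-72, summed fit 2.09e-32). The matched BATF region was at -1.60 ± 0.14 in PC9 (edgeR adjusted p = 8.02e-25) and at -0.61 ± 0.13 in HCC2935 (adjusted p = 1.43e-04), where it was at -0.03 with bin medians removed (adjusted p = 0.882). The BATF region 20.1 kb after the start went the other way. In H1975 it rose from 5.39, 6.13 and 6.27 CPM to 16.6, 18.6 and 19.6, by 1.62 ± 0.13 (edgeR adjusted p = 1.42e-26). It rose by 0.95 ± 0.24 in PC9 (edgeR adjusted p = 7.13e-04) and by 1.08 ± 0.15 in HCC2935 (adjusted p = 2.39e-07). All 3 rises passed with bin medians removed and in the summed fit.

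JUNB in H1975 had a region 1.62 kb before its start (chr19:12789367-12789868) that rose from 1.38, 1.56 and 1.57 CPM to 7.19, 7.70 and 8.01, by 2.32 ± 0.22 (edgeR adjusted p = 2.63e-20). An intronic ATF3 region 7.31 kb before its start fell in H1975 from 5.54, 6.92 and 7.21 CPM to 0.912, 1.03 and 1.5, by 2.49 ± 0.24 (edgeR adjusted p = 3.38e-19). Both passed in the summed fit. In HCC2935 FOSL2 rose by 1.41 ± 0.37 at 2.48 kb (edgeR adjusted p = 0.00215) and by 1.39 ± 0.31 at 25.3 kb (adjusted p = 4.13e-04) before its start. The PC9 region matched to the latter fell by 1.72 ± 0.16 (edgeR adjusted p = 4.74e-23). In HCC827 with the block, JUN was at 1.73 ± 0.40 in a region 19.4 kb after its start (edgeR adjusted p = 0.0162). It was at -1.45 ± 0.37 in one 3.69 kb after its start (edgeR adjusted p = 0.0265). The latter read 7.84, 8.38 and 33.4 CPM in control and 3.27, 6.0 and 7.42 in DTP, so 1 control library lay far above the others. ATF3 in HCC827 was at 1.22 ± 0.30 in an intronic region 11.8 kb before its start (edgeR adjusted p = 0.0214). None of these 3 HCC827 regions passed without the block. The region matched to the JUN rise fell in H1975 by 1.21 ± 0.13 (edgeR adjusted p = 8.03e-16). That matched to the ATF3 rise was higher in HCC2935, by 0.99 ± 0.14 (edgeR adjusted p = 3.61e-07), and lower in PC9, at -0.48 ± 0.15 (adjusted p = 0.00564, summed fit 0.169).

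**Figure D3:**
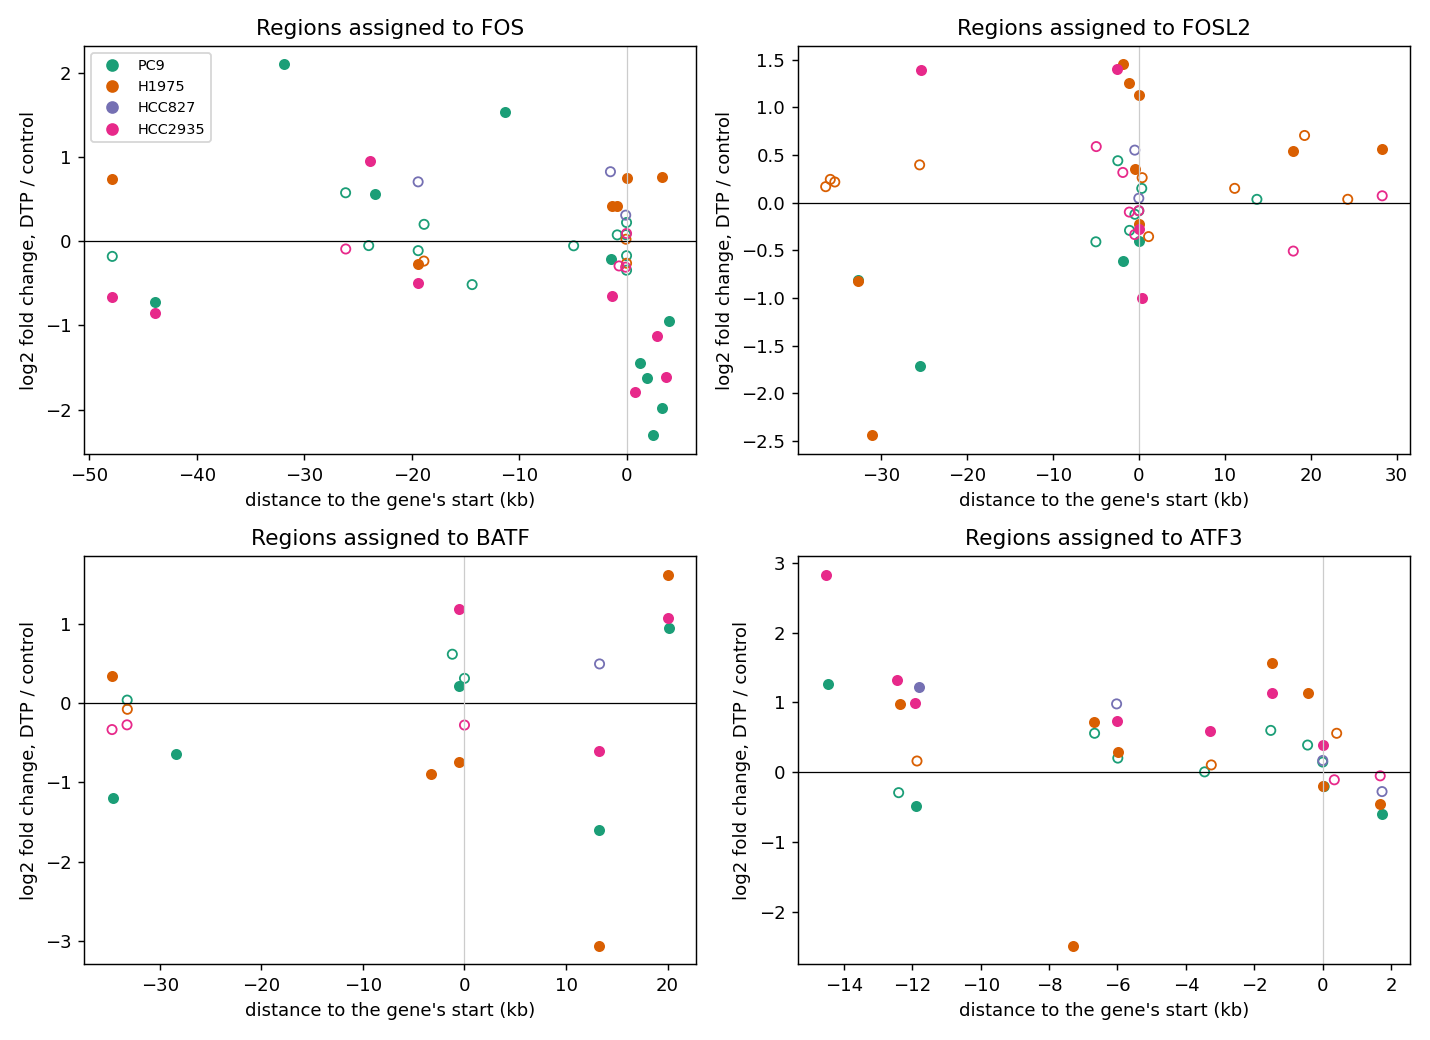
Log2 fold change of DTP against control for the tested regions of FOS, FOSL2, BATF and ATF3 against distance to the start of the gene in kb, by line. The BATF region 13.3 kb after the start is at -3.06 in H1975, beside the region at 20.1 kb at 1.62.

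Over all member regions PC9 had 7 higher and 24 lower of 77 in DTP, where 15.5% of all tested regions were higher and 16.3% lower. These shares, written below as all regions, also count regions without annotation, whereas every member is annotated. The shares by class further on are over annotated regions only. H1975 had 21 higher and 13 lower of 69 (all regions 24.8% and 27%). HCC2935 had 12 higher and 15 lower of 57 (all regions 18.4% and 19%), and 11 higher and 4 lower with bin medians removed. HCC827 had 0 of 23 with edgeR (all regions 0.0267%), with 3 at an unadjusted p under 0.05 and 0 with DESeq2. With the block HCC827 had 2 higher and 1 lower (all regions 2.38% and 1.21%). The median change of the members was -0.15 in PC9, 0.10 in H1975 and -0.08 in HCC2935, against 0.02, 0.02 and -0.02 over all tested regions. Summed libraries gave PC9 5 higher and 15 lower and H1975 10 higher and 8 lower. By library size alone H1975 had 28 higher and 9 lower and HCC2935 16 higher and 12 lower. That scaling moved the median of all H1975 regions from 0.02 to 0.19.

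By position, PC9 had 0 higher and 7 lower of 10 distal intergenic regions, where 17.4% and 27.9% of all annotated regions of that class were called. Promoter regions between 1 and 3 kb from a start had 0 and 8 of 17 (all 14.5% and 30.9%), introns, exons and UTRs 5 and 4 of 20 (18.4% and 29.8%), and promoter regions within 1 kb 2 and 5 of 30 (15.3% and 10.8%). In H1975 the distal regions had 4 higher and 3 lower of 14 (24.4% and 45.1%). Its introns, exons and UTRs had 5 and 5 of 16 (26.2% and 45.8%). Regions from 1 to 3 kb had 5 and 1 of 11 (23.5% and 41.2%), and those within 1 kb 7 and 4 of 28 (26.7% and 23.2%). HCC2935 had, in the same order, 2 and 3 of 8 (24.4% and 25.7%), 6 and 2 of 13 (26.1% and 27.5%), 2 and 3 of 12 (22.3% and 26.8%) and 2 and 7 of 24 (20.5% and 12.4%). In HCC2935 ATF3 had 7 of 9 regions higher and 0 lower, and FOS 1 of 12 higher and 7 lower. With bin medians removed this became 4 and 0 for ATF3 and 1 and 2 for FOS. Matched between lines by the closeness of their starts, 25 regions were found in 3 lines and 17 in 4. Of these, 2 and 2 were called the same way in 3 lines. They were the FOSL2 lead promoter, both BATF intronic regions above and a JUN region 3.78 kb after the start. That JUN region was at -1.5 ± 0.19 in PC9 (edgeR adjusted p = 1.52e-12), at -0.70 ± 0.20 in H1975 (adjusted p = 0.00153) and, with the block, at the value given above for HCC827. Over the regions of all genes matched in the same way, 7.82% of those in 3 lines and 9.19% of those in 4 were called the same way in 3 lines. Opposite calls in different lines were found for 7 of the 25 and 3 of the 17, against 9.68% and 10.1% over all genes.

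The second comparison set combo against DTP and shares its DTP libraries with the first. By the days given for each group, combo had 21 days of osimertinib and DTP 24. The 3 days of AZD5153 and the end of osimertinib before them therefore cannot be told apart. FOSL1 was lower still in PC9, at 29.8, 33.5 and 35.0 CPM in DTP and 19.3, 20.7 and 22.5 in combo, a change of -0.65 ± 0.10 (edgeR adjusted p = 3.77e-08). The other 6 called PC9 lead promoters rose. They were FOSB by 0.58 ± 0.14 (edgeR adjusted p = 4.05e-04), FOSL2 by 0.40 ± 0.078 (1.59e-05), JUN by 0.36 ± 0.084 (3.44e-04), JUNB by 0.35 ± 0.091 (0.00169), ATF3 by 0.32 ± 0.089 (0.00320) and FOS by 0.31 ± 0.11 (0.0257). JUN read 33.3, 34.6 and 36.5 CPM in DTP and 43.0, 43.7 and 47.2 in combo. Libraries overlapped for FOS alone among these 7. In H1975 6 lead promoters rose and 0 fell, with BATF at 0.96 ± 0.17 (edgeR adjusted p = 4.08e-06), FOS at 0.46 ± 0.13 (0.00352), FOSL2 at 0.32 ± 0.069 (8.90e-05), ATF3 at 0.30 ± 0.065 (1.32e-04), JUNB at 0.25 ± 0.081 (0.0156) and JUN at 0.21 ± 0.075 (0.0298). In the summed fit 0 of the 7 PC9 calls remained (FOSL1 adjusted p = 0.0577) and 1 of the 6 in H1975, that of BATF (adjusted p = 0.0109). In HCC2935 and HCC827 0 lead promoters passed with edgeR. Among the lead promoters of all annotated genes 22.6% were higher and 7.29% lower in PC9 and 35.2% and 5.28% in H1975. Epithelial markers were higher in 4 of 5 (median 0.58) in PC9 and 2 of 5 (median 0.19) in H1975, with 0 lower, and 0 of 4 other-cell markers passed in either line. Their part in these results was not tested.

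Outside the lead promoters FOSL2 rose in PC9 2.44 kb before its start, from 2.48, 2.73 and 3.01 CPM to 8.23, 8.36 and 9.37, by 1.65 ± 0.24 (edgeR adjusted p = 1.63e-09). BATF rose in PC9 1.20 kb before its start by 1.33 ± 0.23 (edgeR adjusted p = 1.13e-06). An intronic region 23.5 kb before FOS fell in PC9 from 9.24, 9.73 and 10.8 CPM to 3.13, 3.62 and 4.29, by 1.43 ± 0.22 (edgeR adjusted p = 6.96e-09). In HCC2935 one 23.9 kb before FOS fell from 29.6, 34.0 and 38.7 CPM to 11.2, 16.1 and 17.6, by 1.21 ± 0.14 (edgeR adjusted p = 5.67e-08). JUNB fell in PC9 1.81 kb before its start by 1.14 ± 0.24 (edgeR adjusted p = 5.02e-05), and its H1975 region that had risen in DTP fell by 1.01 ± 0.17 (adjusted p = 4.86e-07). ATF3 rose in H1975 0.408 kb after its start by 1.13 ± 0.22 (edgeR adjusted p = 1.28e-05). These 7 changes passed in the summed fit, as did a rise at a second FOS promoter region of H1975 by 0.92 ± 0.21 (edgeR adjusted p = 2.54e-04) and a fall 26.1 kb before FOS in HCC2935 by 0.88 ± 0.20 (adjusted p = 0.00224). FOSL2 in HCC2935 was at 0.82 ± 0.27 in a region 0.342 kb after its start (edgeR adjusted p = 0.0476), a call lost in 13 of 17 alternatives. FOSL2 fell in H1975 28.3 kb after its start by 0.78 ± 0.18 (edgeR adjusted p = 3.49e-04, summed fit 0.0640).

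Over all members combo against DTP gave 20 higher and 11 lower of 77 in PC9 (all regions 10.7% and 11.6%) and 23 higher and 7 lower of 69 in H1975 (11.5% and 9.5%). Within 1 kb of a start PC9 had 9 and 3 of 30 (annotated regions of that class 17.4% and 9.39%) and H1975 12 and 1 of 28 (28% and 6.48%). In the other classes 13.8% to 17.1% of annotated PC9 regions were higher and 13.8% to 17.9% lower. For H1975 these shares were 17.6% to 18.9% and 12.2% to 13.5%. Summed libraries gave PC9 3 higher and 5 lower and H1975 6 higher and 1 lower. By library size alone H1975 had 18 higher and 10 lower. HCC2935 had 2 higher and 4 lower of 57 (all regions 2.37% and 6.03%), and 1 higher and 4 lower by library size alone or with DESeq2 size factors. HCC827 had 0 of 23 with edgeR (all regions 0%), with 1 at an unadjusted p under 0.05 and 0 with DESeq2, and 0 with the block (all regions 0.0158%).

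The third comparison was AZD5153 without osimertinib against the same control libraries as the first. In PC9 1 lead promoter passed, that of FOSL1, at 37.1, 37.7 and 39.7 CPM with AZD5153 and 45.8, 46.4 and 46.8 in control, a change of -0.28 ± 0.081 (edgeR adjusted p = 0.00421, summed fit 0.451). In H1975 BATF fell from 5.65, 5.78 and 7.74 CPM to 0.461, 0.815 and 2.02, by 2.64 ± 0.27 (edgeR adjusted p = 1.53e-18, summed fit 1.59e-13). JUND was at 0.87 ± 0.078 (edgeR adjusted p = 3.72e-22), JUNB at 0.76 ± 0.080 (2.36e-17), FOSL1 at 0.53 ± 0.087 (2.12e-08) and FOSL2 at 0.20 ± 0.069 (0.00747), of which FOSL2 was lost in the summed fit (0.488). Of the lead promoters of all annotated genes 42.2% were higher and 25% lower in H1975, and 8.79% and 13% in PC9. The bin median was 1.10 around JUNB and JUND and 0.83 around FOSL1. With bin medians removed these 3 turned direction, JUNB to -0.23 (edgeR adjusted p = 0.0225), FOSL1 to -0.20 (0.0713) and JUND to -0.12 (0.256). BATF stayed at -2.46 (adjusted p = 1.84e-15), and ATF3, at 0.01 before, was at 0.42 (adjusted p = 1.83e-06) over a bin median of -0.48.

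All 6 BATF regions fell in H1975, with changes from -0.54 to -3.92, and 5 were called lower with bin medians removed. Of all annotated H1975 regions 53.9% of the distal ones and 56% of those in introns, exons and UTRs were lower. The largest BATF fall lay 34.7 kb before the start, where control read 7.35, 7.47 and 7.69 CPM and AZD5153 0.408, 0.467 and 0.577 (edgeR adjusted p = 5.73e-30). JUN fell 19.2 kb after its start from 13.2, 14.7 and 14.7 CPM to 0.778, 0.807 and 1.53, by 3.69 ± 0.21 (edgeR adjusted p = 1.17e-43). FOSL2 rose 25.5 kb before its start from 1.32, 2.35 and 2.41 CPM to 22.7, 22.7 and 23.9, by 3.51 ± 0.16 (edgeR adjusted p = 1.89e-56). The PC9 region at that place, looked up after its value was seen, was at -0.94 ± 0.14 (edgeR adjusted p = 6.90e-10). FOSL1 rose 0.131 kb after its start by 3.28 ± 0.30 (edgeR adjusted p = 7.38e-22). The H1975 changes of JUN, FOSL2 and FOSL1 and the largest of BATF passed in the summed fit and with bin medians removed. In PC9 BATF fell 28.4 kb before its start by 1.40 ± 0.20 (edgeR adjusted p = 4.09e-10), FOS fell 23.5 kb before its start by 1.17 ± 0.25 (3.74e-05) and FOSL2 rose 13.7 kb after its start by 1.25 ± 0.25 (1.56e-05), all 3 also in the summed fit. JUND was at 0.72 ± 0.24 in a region 2.75 kb after its start (edgeR adjusted p = 0.0143), which was lost in the summed fit (0.127), with DESeq2 and without PC9 AZD5153 replicate 3.

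With AZD5153 alone 35 regions were higher and 21 lower of 69 in H1975 (all regions 26.7% and 31.4%), and 9 higher and 18 lower of 77 in PC9 (11.3% and 14.5%). Within 1 kb of a start H1975 had 17 and 3 of 28 (annotated regions of that class 43.8% and 24.4%) and PC9 5 and 3 of 30 (10.4% and 12.2%). In the other classes 19.3% to 25.1% of annotated H1975 regions were higher and 48.2% to 56% lower. For PC9 these shares were 17.1% to 17.4% and 20.6% to 23.5%. Summed libraries gave H1975 30 higher and 18 lower and PC9 2 higher and 9 lower. In the same H1975 comparison 5 of 5 epithelial and 4 of 4 measured other-cell markers were lower at the promoter, with medians of -1.28 and -1.27. In PC9 1 of 5 epithelial markers was higher and 0 lower, and 3 of 4 other-cell markers were lower. Their part in these results was not tested.

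**Figure D4:**
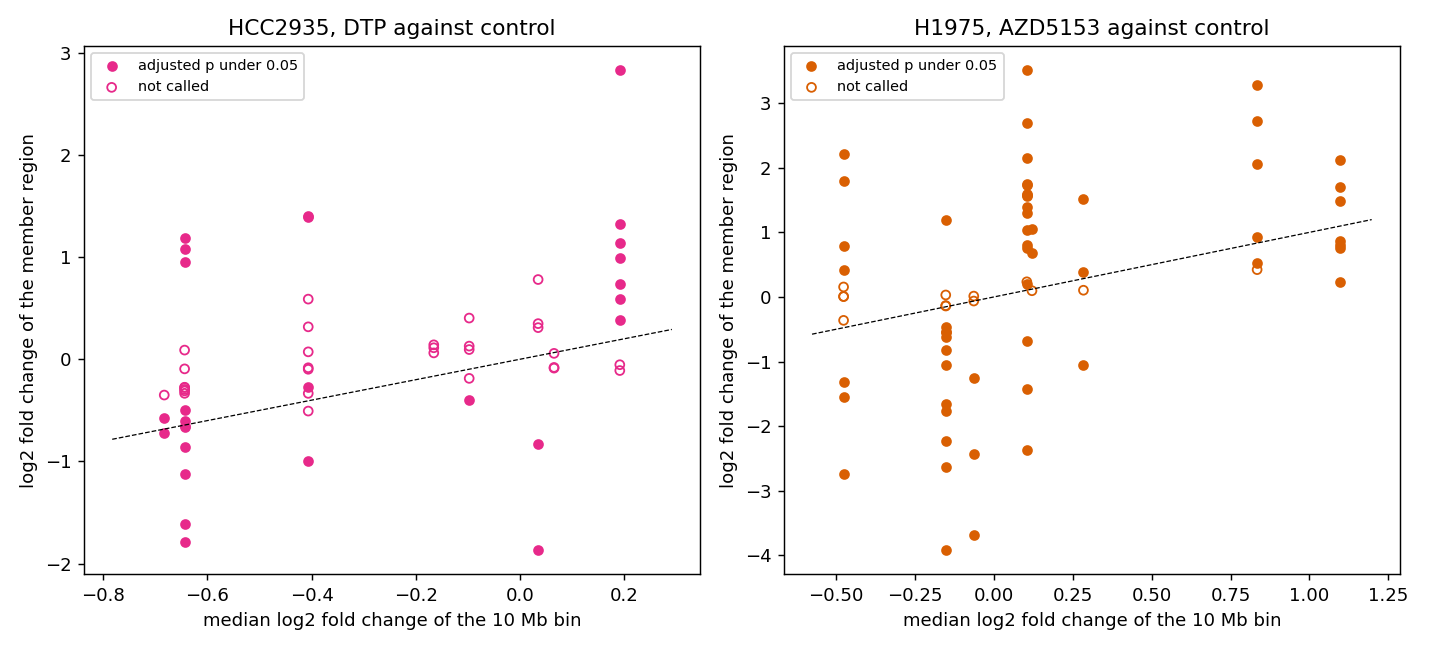
Log2 fold change of each tested member region against the median of its 10 Mb bin, for DTP against control in HCC2935 and AZD5153 against control in H1975. Filled points passed an adjusted p of 0.05. JUNB and JUND in H1975 share a bin with a median of 1.10.

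PC9 and H1975 allowed a test of whether AZD5153 acted differently in persister and control cells. In PC9 the change from DTP to combo was the more positive for FOSB (0.64 ± 0.20, edgeR adjusted p = 0.0125), FOSL2 (0.47 ± 0.11, 3.36e-04), JUNB (0.39 ± 0.13, 0.0317) and JUN (0.38 ± 0.12, 0.0215). It was the more negative for FOSL1 (-0.37 ± 0.13, 0.0393). In H1975 BATF had the largest difference at 3.60 ± 0.32 (edgeR adjusted p = 3.62e-22, summed fit 1.13e-14), being lower with AZD5153 than in control and higher in combo than in DTP. FOSL1 (-0.72 ± 0.13), JUND (-0.70 ± 0.11) and JUNB (-0.51 ± 0.11) were negative in H1975 and turned positive with bin medians removed. In the summed fit 0 of 5 lead promoter calls remained in PC9 and 1 of 7 in H1975. Over all regions 12 members were positive and 3 negative of 77 in PC9 (all regions 13.8% called), and 22 and 26 of 69 in H1975 (all regions 42.5% called). By library size alone PC9 had 9 positive and 5 negative and H1975 17 and 30, while H1975 had 22 and 17 with bin medians removed and 23 and 18 with no filter, and the summed fit left 4 calls in PC9 and 30 in H1975.

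Genes around AP-1 were followed at their lead promoters in 3 lists, whose counts for DTP stand against the shares of all lead promoters given above for PC9, H1975 and HCC2935, and against 0.815% higher and 0.602% lower in HCC827 with the block. Of 25 other basic leucine zipper factors, DTP against control gave 4 higher and 3 lower of 24 measured in PC9, 10 and 6 of 24 in H1975, 5 and 2 of 25 in HCC2935, and with the block 3 and 0 of 22 in HCC827. CREB5 was at -0.62 ± 0.090 in PC9 (edgeR adjusted p = 3.93e-10) and at 0.83 ± 0.074 in H1975 (4.02e-22). In combo against DTP this list gave 10 higher and 1 lower in PC9 (all lead promoters 22.6% and 7.29%) and 11 and 1 in H1975 (35.2% and 5.28%). It gave 2 and 1 in HCC2935 (7.54% and 2.53%) and, with the block, 0 in HCC827 (0% and 0.00926%). Of 20 upstream kinases and serum response factors, HCC2935 DTP had 6 higher and 0 lower of 19, led by MAP2K7, a kinase that activates JNK, at 0.80 ± 0.19 (edgeR adjusted p = 5.65e-04). PC9 had 3 and 2 of 20, HCC827 with the block 0 of 17, and H1975 3 and 5 of 20, with the kinase gene RPS6KA1 at 0.91 ± 0.14 (edgeR adjusted p = 4.89e-09) and ELK1, a partner of serum response factor, at -0.63 ± 0.074 (3.00e-14).

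Of 22 known AP-1 target genes, H1975 DTP had 2 higher and 13 lower of 20 (median -0.33), PC9 0 and 5 of 17 (median -0.21), HCC2935 1 and 4 of 21 (median -0.01) and HCC827 with the block 0 of 15. CXCL8, a neutrophil chemokine, fell in H1975 by 2.07 ± 0.17 (edgeR adjusted p = 3.65e-26). PLAU, the urokinase protease, fell by 1.65 ± 0.13 in PC9 (edgeR adjusted p = 1.94e-32) and by 1.64 ± 0.21 in HCC2935 (1.38e-08). List calls were not run in the summed fit.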

How the data were processed

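The authors deposited, for each of the 4 lines, counts of reads per region as a full table and an annotated table. These counts are not normalised. The submitters' processing notes name hg38, BWA 0.7.17, SAMtools 1.9, deepTools 3.4, MACS2 2.2.6, featureCounts 2.0.0 and ChIPseeker 1.29.1. The extract protocol in the labels describes a ChIP, so how the ATAC libraries were made is unknown here. Regions were matched between lines where their starts lay no farther apart than the edge of a region from its centre.

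Counts were tested with edgeR 4.0.16 in R 4.3.3 (TMM, filterByExpr, all groups of a line in 1 quasi-likelihood fit, Benjamini-Hochberg over all tested regions, called under 0.05). Alternatives used limma 3.58.1 and DESeq2 1.42.0. The summed fit used the common dispersion of HCC2935, 0.0102, and bin medians were taken over 10 Mb bins of at least 50 regions. Besides lead promoters, the 2 largest rises and falls per line and comparison were named among called regions above the median CPM whose libraries did not overlap, together with matched regions called the same way in 3 lines.

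Same-numbered libraries correlated at 0.26 to 0.83 in HCC827, which pairs them, and at -0.01 to 0.01 in PC9, -0.06 to 0.02 in H1975 and -0.07 to 0.21 in HCC2935. On simulated counts for DTP against control, edgeR without the block recovered 41% (PC9), 42% (H1975), 0% (HCC827) and 31% (HCC2935) of regions changed by 1 log2 unit. The fit of HCC827 with the block was not simulated. The test between lines was first designed in limma with 1 weight per line. It made 311 false calls over 81827 simulated regions and recovered 178 of 200 changed ones. An edgeR likelihood ratio test with a dispersion per line replaced it (11 false, 162 of 200 recovered). The counts were drawn with 1 dispersion for all regions of a line. They therefore cannot show how either test does where regions differ in spread. Intervals and p-values cover the spread between these libraries, which may be technical. The members and lists were chosen with earlier results of these data known. Some genes counted in the lists are not reported here by name.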

Additional observations from a re-analysis of the deposited data

Results flagged for a closer look

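The change of DTP against control differed between lines at the lead promoters of FOSL1 (edgeR adjusted p = 1.56e-04), ATF3 (1.78e-04) and JUN (0.0256), in a test not run with bin medians removed. The response to AZD5153 differed between persister and control cells, by the interaction term in edgeR, at 5 lead promoters of PC9: FOSB (0.64), FOSL2 (0.47), JUNB (0.39), JUN (0.38) and FOSL1 (-0.37). In H1975 the changes differed at 7: BATF (3.60), FOSL1 (-0.72), JUND (-0.70), JUNB (-0.51), FOS (0.43), ATF3 (0.30) and JUN (0.27), all log2 differences. In the summed fit BATF was the only one of these 12 interactions to pass. Of 21 alternatives the H1975 call was lost in 19 for FOS, 11 for JUN and 5 for ATF3. The PC9 call was lost in 11 for JUNB, 10 for FOSL1, 9 for JUN, 5 for FOSB and 1 for FOSL2. With bin medians removed JUNB in H1975 turned to 0.56 (edgeR adjusted p = 1.44e-04) and JUND to 0.37 (0.0156).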

How the results depend on the processing

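With the libraries of a group summed, calls went to 20 (PC9) and 18 (H1975) in DTP against control, to 8 (PC9), 7 (H1975) and 2 (HCC2935) in combo against DTP, to 11 (PC9) with AZD5153 alone, and to 4 (PC9) and 30 (H1975) in the interaction. With a filter at a mean of 50 counts, which left fewer regions to test, they were 12 (PC9) and 16 (HCC2935) for DTP, 11 (PC9) and 15 (H1975) for combo, 8 (PC9) and 36 (H1975) for AZD5153, and 31 for the H1975 interaction. DESeq2 gave 18 (PC9 combo), 2 (HCC2935 combo), 13 (PC9 AZD5153) and 7 (PC9 interaction). No filter gave 2 (HCC2935 combo) and 8 (PC9 interaction). With bin medians removed HCC2935 DTP had 15, and an overlap of at least 80% gave 5 of 10 between lines. The cause was not tested. With the replicate block HCC827 DTP had 3 calls against 0. In the lines that the numbers do not pair, the replicate block left 31 (PC9 DTP), 34 (H1975 DTP) and 27 (HCC2935 DTP) and moved no count by over 1.5 times.

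Leaving out 1 library gave 28 to 32 (PC9), 31 to 35 (H1975), 0 to 0 (HCC827) and 25 to 28 (HCC2935) calls for DTP, 23 to 32, 23 to 31, 0 to 0 and 2 to 6 for combo, 24 to 27 (PC9) and 52 to 57 (H1975) for AZD5153, and 11 to 15 (PC9) and 43 to 48 (H1975) for the interaction. HCC2935 combo fell to 3 without DTP replicate 1 or combo replicate 2, and to 2 without DTP replicate 3 or combo replicate 1.

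Directions turned with bin medians removed for FOSL2 in HCC2935 DTP (0.13), for FOSL1 (-0.20), JUNB (-0.23) and JUND (-0.12) with AZD5153 in H1975, and for FOSL1 (0.057), JUNB (0.56), JUND (0.37) and ATF3 (-0.15) in the H1975 interaction. In the latter the filter at a mean of 50 counts turned FOSL2 (-0.22), JUN (-0.062) and ATF3 (-0.042). HCC827 had the shallowest libraries, with 1724680 to 4242868 counts, and regions without a call there may still have changed. By library size alone the median log2 change of all tested H1975 regions moved from -0.04 to 0.12 with AZD5153 and from -0.0038 to -0.23 in the interaction, and no count of calls moved by over 1.5 times.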
